A study of Mus musculus with 6 samples.

Results

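The insulin-like growth factor (IGF) system was followed through 10 genes of the mouse diaphragm: the ligands Igf1 and Igf2, the receptor Igf1r, and the binding proteins Igfbp1 to Igfbp7. The genes were chosen by name as members of the family, with earlier results of these data known, and all 10 were found among the 23073 genes with a value. Expression was measured by RNA-Seq at E14.75 in 6 libraries that fall into 3 groups of 2. The erbB3 WT group (wild-type 5 and wild-type 6) and the erbB3 KO group (mutant 1 and mutant 2) are total RNA of diaphragm muscle, the first with Schwann cells and the second from embryos mutant for the neuregulin receptor erbB3, whose muscle the labels describe as lacking Schwann cells. The Wnt1-Ribotag group (genotype Wnt1-Cre, Ribotag, erbB3 WT; Wnt1-Ribotag 1 and 2) also has Schwann cells, and the labels call its RNA specific to them. In these embryos Wnt1-Cre switches on a hemagglutinin-tagged ribosomal protein in neural crest derivatives, and the RNA is what was pulled down with an antibody against the tag from the pooled diaphragms of a litter, in which the embryos without Cre were included. Wnt1-Cre acts in the whole neural crest lineage and not in Schwann cells alone, and pull-down, starting amount of RNA and cell type all differ between the Ribotag libraries and the whole-muscle libraries, so these cannot be told apart in a comparison of the 2 kinds. All embryos were of a single age, and the series text calls the 2 libraries of each group biological replicates.

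IGF1 and IGF2 are secreted growth factors that bind the IGF1 receptor, a tyrosine kinase at the cell surface, and through insulin receptor substrates, PI3K and AKT promote the growth and survival of embryonic tissues, muscle among them. IGFBP1 to IGFBP6 are secreted proteins that bind the ligands with high affinity and hold them in the extracellular space or release them to the receptor, and IGFBP7 is a relative that binds them only weakly. Igf2 is the predominant ligand of the embryo, and Igfbp5 is a binding protein known for its expression in developing muscle.

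Values are given as RPKM, a read number divided by gene length and by sequencing depth, so a level per length that allows genes to be set side by side within a library. Where a gene had no reads, the files give a small floor in place of 0. The files analysed here do not list read totals, no counting error is given, and the precision rests on 2 libraries a group. Each of the 10 IGF genes exceeded its floor in every library, as did between 17205 and 20349 genes of a library in all, the fewest in the Wnt1-Ribotag libraries. Sox10, a defining Schwann cell gene, was at 2.16 and 2.89 RPKM in wild-type muscle, at 0.00854 and 0.0178 in mutant muscle and at 15.5 and 32.2 in the Wnt1-Ribotag libraries. Erbb3 itself was at 16.5 and 15.8 RPKM in wild-type 5 and 6, at 21.5 and 11.9 in mutant 1 and 2, and at 19.5 and 25.3 in Wnt1-Ribotag 1 and 2. Its single value per gene did not separate the genotypes and does not show the disrupted part of the transcript. Liver genes were present in the diaphragm libraries and differed between them: the summed level of 13 liver markers was 523 and 160 RPKM in wild-type 5 and 6, 18.7 and 10.9 in mutant 1 and 2, and 293 and 207 in Wnt1-Ribotag 1 and 2.

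Differences between groups were tested on log2(RPKM + 0.5) with limma over every gene with a mean of at least 0.5 RPKM in the 4 libraries compared, and p-values were adjusted over all genes tested by the Benjamini-Hochberg method with a threshold of 0.05. All 10 IGF genes passed this filter in each comparison. Every log2 fold change below is on this scale, which understates the change of genes near 0.5 RPKM. The 3 comparisons share libraries in pairs, so that their results are not independent of each other.

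Across the 10 genes and 6 libraries the levels ran from 0.244 to 3550 RPKM, and their order was nearly the same in the 4 whole-muscle libraries. In wild-type muscle the order of mean RPKM was Igf2 (1095 ± 24.6, SD, n = 2), Igfbp5 (335 ± 58.4), Igfbp4 (222 ± 9.20), Igfbp2 (139 ± 14.5), Igfbp3 (92.9 ± 4.27), Igf1 (63.8 ± 13.6), Igfbp7 (19.5 ± 2.30), Igf1r (8.83 ± 0.0386), Igfbp6 (6.42 ± 1.01) and Igfbp1 (2.56 ± 0.0615). No neighbours in that order overlapped in the RPKM of the wild-type libraries. In mutant muscle the same order held for the means except that Igfbp6 (6.59 and 7.41) stood just above Igf1r (4.76 and 8.95), and the libraries of Igf1r and Igfbp6, and of Igfbp4 and Igfbp2, overlapped. In the Wnt1-Ribotag libraries Igf2 and Igfbp5 again led, but Igf1 (199 ± 173) had the 3rd highest mean, Igfbp2 (52.8 ± 1.10) was 6th in both libraries where it was 4th in whole muscle, and Igfbp6 (1.13 ± 0.492) had the lowest mean, and the libraries of Igf2 and Igfbp5, of Igf1 and Igfbp4, and of Igfbp1 and Igfbp6 overlapped. Igf2 was 1st and Igfbp5 2nd among the 10 genes in each of the 6 libraries.

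**Figure D1:**
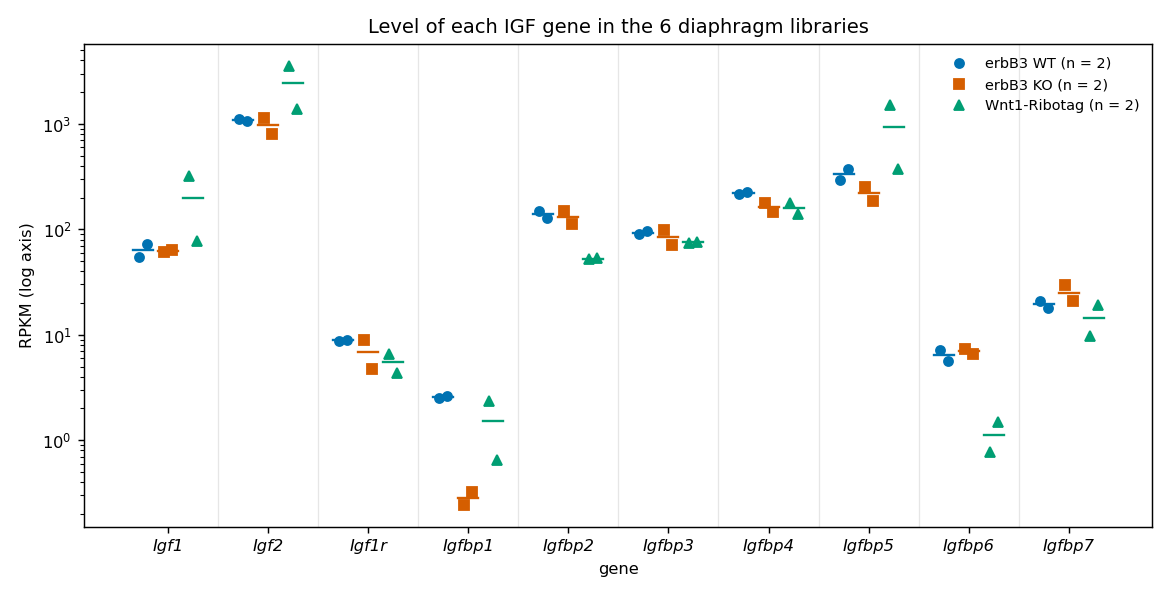
RPKM of the 10 IGF genes on a log axis, with 1 symbol per library (circles erbB3 WT, squares erbB3 KO, triangles Wnt1-Ribotag, n = 2 each) and a line at each group mean. Igfbp1 was lower in both mutant libraries (0.244 and 0.319) than in both wild-type libraries (2.51 and 2.60), and the Wnt1-Ribotag pairs of Igf1, Igf2, Igfbp1 and Igfbp5 stand at least 2-fold apart.

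The ligands. Igf2, the main embryonic growth factor of the family, was among the most abundant transcripts of the muscle. It was at 1112 and 1078 RPKM in wild-type 5 and 6, at 1147 and 797 in mutant 1 and 2, and at 3550 and 1373 in Wnt1-Ribotag 1 and 2. Among all genes of a library these levels ranked 39 and 35 in wild-type, 37 and 93 in mutant, and 5 and 18 in the Wnt1-Ribotag libraries, and they made up 0.245%, 0.244%, 0.251%, 0.168%, 0.884% and 0.322% of the RPKM total in the same order. Wild-type and mutant muscle overlapped for Igf2, and the difference was -0.20 on the log2 scale (SE 0.23, 95% interval -0.72 to 0.33, adjusted p = 0.690 with limma).

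Igf1, the ligand that growth hormone controls after birth, was at 54.2 and 73.3 RPKM in wild-type 5 and 6, at 60.4 and 63.0 in mutant 1 and 2, and at 321 and 76.7 in Wnt1-Ribotag 1 and 2. Both mutant libraries lay between the wild-type ones, with a log2 difference of -0.03 (SE 0.17, 95% interval -0.42 to 0.36, adjusted p = 0.945 with limma). Igf2 exceeded Igf1 in RPKM by 12.6-fold to 20.5-fold in whole muscle and by 11.0-fold and 17.9-fold in Wnt1-Ribotag 1 and 2, ranges that overlap.

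Both ligands were higher in each Wnt1-Ribotag library than in each whole-muscle library, and neither difference passed the test. Against wild-type muscle the log2 difference was 1.31 for Igf1 (SE 0.68, adjusted p = 0.351) and 1.01 for Igf2 (SE 0.46, adjusted p = 0.309), and against mutant muscle it was 1.34 (SE 0.60, adjusted p = 0.288) and 1.21 (SE 0.47, adjusted p = 0.235), all with limma. A single library set the size of these values. Wnt1-Ribotag 2 was at 76.7 RPKM for Igf1, just above the 73.3 of wild-type 6, and without Wnt1-Ribotag 1 the difference of Igf1 from wild-type muscle was 0.28 and that of Igf2 was 0.33, and from mutant muscle 0.31 and 0.52, none past the test. Without Wnt1-Ribotag 2 they were 2.34 (adjusted p = 0.00184) and 1.70 (0.00264) from wild-type muscle and 2.37 (3.73e-04) and 1.89 (0.0203) from mutant muscle with limma, all past the test. A fit without either Ribotag library has no spread between Ribotag libraries to estimate and passed 2538 to 5965 genes in these comparisons, so that calls made in it are given only to show how much 1 library moves a value. The antisense gene Igf1os, which overlaps Igf1, was at 0.00463 to 0.698 RPKM, and Igf2os, which overlaps Igf2, at 17.8 to 30.8 RPKM, each low beside the gene it overlaps. The strand setting of the counting is not given in the sources used here, so reads of a gene and its antisense partner cannot be told apart.

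The receptor. Igf1r, which carries the signal of both ligands, was at 8.80 and 8.86 RPKM in wild-type 5 and 6, at 8.95 and 4.76 in mutant 1 and 2, and at 6.59 and 4.34 in Wnt1-Ribotag 1 and 2. The mutant pair held both the highest and nearly the lowest of these levels, and its log2 difference from wild-type muscle was -0.40 (SE 0.25, 95% interval -0.99 to 0.18, adjusted p = 0.494 with limma). It was -0.83 without mutant 1 and 0.019 without mutant 2. Both Wnt1-Ribotag libraries were below both wild-type libraries. That log2 difference was -0.67 (SE 0.24) and did not pass the test (adjusted p = 0.239 with limma). It was -0.95 without Wnt1-Ribotag 1 and -0.40 without Wnt1-Ribotag 2. The Ribotag libraries overlapped the mutant ones, with a log2 difference of -0.27 (SE 0.36, adjusted p = 0.715 with limma). Igf2r, the receptor that takes up IGF2 for degradation and is listed here among the other pathway genes, exceeded Igf1r in RPKM by between 6.33-fold and 7.78-fold in the 6 libraries.

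The binding proteins in wild-type and mutant muscle. Igfbp1 was the only one of the 10 genes that passed the test between the genotypes. Igfbp1, a binding protein that the fetal liver makes in large amounts and that insulin represses, was at 2.51 and 2.60 RPKM in wild-type 5 and 6 and at 0.244 and 0.319 in mutant 1 and 2. It fell by 1.97 on the log2 scale (SE 0.16, 95% interval -2.34 to -1.60, adjusted p = 0.00640 with limma), and was lower in 4 of 4 pairs of libraries, the mutant mean standing at 11.0% of the wild-type mean. In bulk RNA fewer cells of a type and less RNA per cell cannot be told apart. Both mutant libraries lay below the 0.5 RPKM of the filter, so that Igfbp1 entered the test only through its level in wild-type muscle. The call was kept without any 1 library (adjusted p between 0.00238 and 0.0478). It was lost with no filter on low values (adjusted p = 0.159) and with all 6 libraries in the fit (adjusted p = 0.525).

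Liver genes moved with Igfbp1 between the genotypes. All 13 liver markers had a negative difference in mutant against wild-type muscle, with a median of -2.82 on the log2 scale, and 3 of them passed the test. Their mutant means stood at 3.08% to 10.6% of their wild-type means beside 11.0% for Igfbp1. Between the wild-type libraries the pattern differed. Wild-type 5 exceeded wild-type 6 by between 2.70-fold and 4.69-fold (median 3.61-fold) in the RPKM of the 13 liver markers, whereas the ratio was 0.967 for Igfbp1. Measured from wild-type 6 alone, the wild-type library with less liver RNA, Igfbp1 was 8.15-fold above the higher mutant library and the liver markers were 3.99-fold to 14.2-fold above it (median 6.93-fold). Red cell markers moved as well, their summed level being 46.9 and 23.2 RPKM in wild-type 5 and 6 and 17.8 and 8.33 in mutant 1 and 2, with 5 of 5 differences negative and 0 of 5 past the test. The Schwann cell markers summed to 60.1 and 52.9 RPKM in wild-type 5 and 6 and to 47.0 and 25.7 in mutant 1 and 2, and to 14.76 and 14.81 against 4.33 and 3.35 without Erbb3 and Ngfr, the most abundant of them. All 9 Schwann cell markers tested had a negative difference, and 3 passed the test. The part of liver, red cell or Schwann cell RNA in the result for Igfbp1 was not tested.

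**Figure D2:**
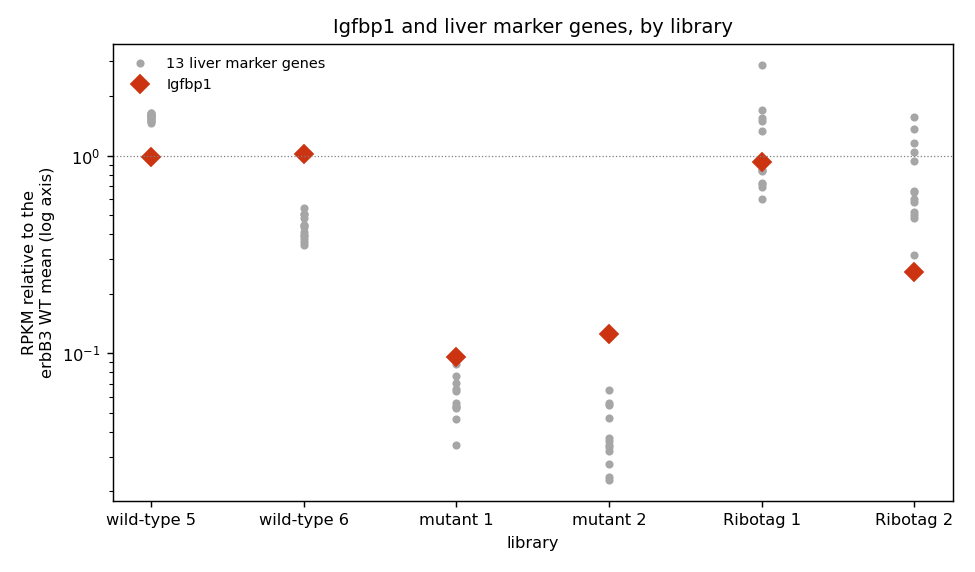
RPKM of Igfbp1 (red diamonds) and of 13 liver marker genes (grey circles, 1 per gene) in each of the 6 libraries, divided by the gene's mean in the erbB3 WT libraries and drawn on a log axis. Igfbp1 is level between wild-type 5 and 6 where the liver genes are 2.70-fold to 4.69-fold apart, and all 14 genes are far below the wild-type mean in both mutant libraries.

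Igfbp1 lies next to Igfbp3 on chromosome 11, with 3539 bases between the 2 genes in GENCODE M21 on GRCm38, and Igfbp2 lies next to Igfbp5 on chromosome 1, with 5457 bases between them. The files hold no coordinates and the submitters' processing notes name mm9, so that these positions describe the genes and not the mapped reads. The sequences before the starts of these genes are shown because Igfbp1 passed the test between the genotypes and its neighbour Igfbp3 did not, and, for the other pair, because Igfbp5 and Igfbp2 had fitted differences of opposite sign in the Wnt1-Ribotag libraries, neither of which passed the test. They come from the RefSeq promoter table for GRCm38.p6, are written 5′ to 3′ on the gene's own strand up to the annotated start, and leave out bases that GENCODE places in an exon. Capitals mark matches to the motifs searched for.
Igfbp1, chr11:7197537-7197781, plus strand: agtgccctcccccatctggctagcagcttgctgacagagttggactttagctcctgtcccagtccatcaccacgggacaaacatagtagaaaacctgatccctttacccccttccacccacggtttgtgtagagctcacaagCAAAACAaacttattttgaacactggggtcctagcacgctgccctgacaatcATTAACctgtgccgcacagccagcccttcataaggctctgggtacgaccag
Igfbp3, chr11:7213924-7214173, minus strand: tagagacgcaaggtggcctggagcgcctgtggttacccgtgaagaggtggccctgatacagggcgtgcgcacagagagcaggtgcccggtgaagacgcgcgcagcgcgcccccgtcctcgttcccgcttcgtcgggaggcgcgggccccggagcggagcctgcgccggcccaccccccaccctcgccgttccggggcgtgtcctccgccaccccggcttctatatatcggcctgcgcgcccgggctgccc
Igfbp2, chr1:72824230-72824479, plus strand: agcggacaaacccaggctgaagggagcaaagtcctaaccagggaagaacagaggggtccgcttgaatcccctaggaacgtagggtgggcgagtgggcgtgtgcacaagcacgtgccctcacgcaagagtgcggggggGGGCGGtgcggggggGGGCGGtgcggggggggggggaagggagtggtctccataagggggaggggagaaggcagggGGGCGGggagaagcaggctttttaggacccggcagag
Igfbp5, chr1:72874885-72875115, minus strand: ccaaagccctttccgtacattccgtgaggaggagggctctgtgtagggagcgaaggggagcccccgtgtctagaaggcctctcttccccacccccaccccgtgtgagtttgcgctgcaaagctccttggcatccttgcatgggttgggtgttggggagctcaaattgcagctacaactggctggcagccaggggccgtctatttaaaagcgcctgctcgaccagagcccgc

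The motifs were searched on both strands in the 250 bases before each start, and none of them contains another. They were TATAAA (the TATA box, in 12.4% of 32851 promoters), GTAAACA (the core of the FOXO and forkhead site, in 3.17%), CAAAACA (the start of the insulin response element, in 5.56%), GTTAAT (part of the site of the liver factor HNF1, in 6.43%) and GGGCGG (the GC box, in 32.7%). The Igfbp1 promoter held CAAAACA with its first base 108 bases before the start, and GTTAAT on the other strand 56 bases before it. Its neighbour Igfbp3 held none of the 5 motifs, nor did Igfbp5, and the first of the 2 Igfbp2 promoters in the table, the one shown, held the GC box 3 times. The second Igfbp2 promoter held none and had a GC content of 56.4%. GC content over the 250 bases was 53.2% for Igfbp1, 73.2% for Igfbp3, 67.2% for the first of Igfbp2 and 58.8% for Igfbp5. A match is a description of the letters in the window and not of a bound site.

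Igfbp3, the main carrier of IGF in adult blood and the gene beside Igfbp1, did not share its fall. It was at 89.9 and 95.9 RPKM in wild-type 5 and 6 and at 99.6 and 70.8 in mutant 1 and 2, with the mutant libraries on either side of the wild-type ones. Its log2 difference was -0.14 (SE 0.18, 95% interval -0.56 to 0.27, adjusted p = 0.717 with limma), an interval that does not reach the fall of Igfbp1.

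Igfbp4 and Igfbp5 were lower in both mutant libraries than in both wild-type libraries and did not pass the test. Igfbp4, which inhibits IGF action until the protease PAPP-A cleaves it, was at 215 and 228 RPKM in wild-type 5 and 6 and at 179 and 147 in mutant 1 and 2, a log2 difference of -0.45 (SE 0.16, unadjusted p = 0.0217, adjusted p = 0.378 with limma). Igfbp5, the most abundant binding protein here, was at 293 and 376 RPKM in wild-type and at 255 and 186 in mutant libraries in the same order, a log2 difference of -0.61 (SE 0.20, unadjusted p = 0.0185, adjusted p = 0.370 with limma). The median of all genes tested lay at -0.10 in this comparison, and after median-ratio scaling, which brings it to -0.003, the differences were -0.34 for Igfbp4 and -0.49 for Igfbp5. Leaving out 1 library moved Igfbp4 between -0.59 (without mutant 1) and -0.31 (without mutant 2), and Igfbp5 between -0.83 and -0.38 for the same libraries, none past the test. Skeletal muscle markers went the other way, with 9 of 10 differences positive, a median of 0.28 and 0 past the test, and summed to 4257 and 3480 RPKM in wild-type 5 and 6 and to 7014 and 4988 in mutant 1 and 2. Of the connective tissue and tendon markers 5 of 10 differences were positive and 2 passed the test, Tnmd and Kera, both higher in mutant muscle. Kera was at 2.82 and 3.31 RPKM in wild-type 5 and 6 and at 10.2 and 9.18 in mutant 1 and 2. The part of tissue composition in the values of Igfbp4 and Igfbp5 was not tested.

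The other binding proteins overlapped between the genotypes. Igfbp2, a binding protein of fetal blood, was at 149 and 129 RPKM in wild-type 5 and 6 and at 148 and 113 in mutant 1 and 2 (log2 difference -0.10, SE 0.17, adjusted p = 0.806 with limma). Igfbp6, which prefers IGF2 to IGF1, was at 7.13 and 5.70 RPKM in wild-type and at 7.41 and 6.59 in mutant libraries (0.12, SE 0.16, adjusted p = 0.730 with limma). Igfbp7, the weak binder, was at 21.1 and 17.8 RPKM in wild-type and at 29.4 and 20.8 in mutant libraries (0.34, SE 0.19, adjusted p = 0.453 with limma), the only one of the 10 besides Igfbp6 with a positive difference. It was 0.10 without mutant 1 and 0.59 without mutant 2.

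Between the genotypes, then, 1 of the 10 genes passed the test, in a comparison in which 0.171% of 14052 genes did so, and 3 had an unadjusted p below 0.05, as did 12% of all genes. The gene that passed, Igfbp1, entered the test only through its level in wild-type muscle. Its call was lost with no filter and with all 6 libraries in the fit. All libraries of 1 genotype stood apart from the other for 3 of the 10 genes on the lower side, against 37.4% of all genes, and for 0 on the higher side, against 12.7%. A difference of at least 2-fold in all 4 pairs of libraries was found for 1 gene on the lower side (Igfbp1), against 0.399% of all genes, and for 0 on the higher side, against 0.0498%. Genes whose groups did not overlap were thus no more frequent among the 10 than among all genes. The median log2 difference of the 10 genes was -0.17, beside -0.10 for all genes.

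**Figure D3:**
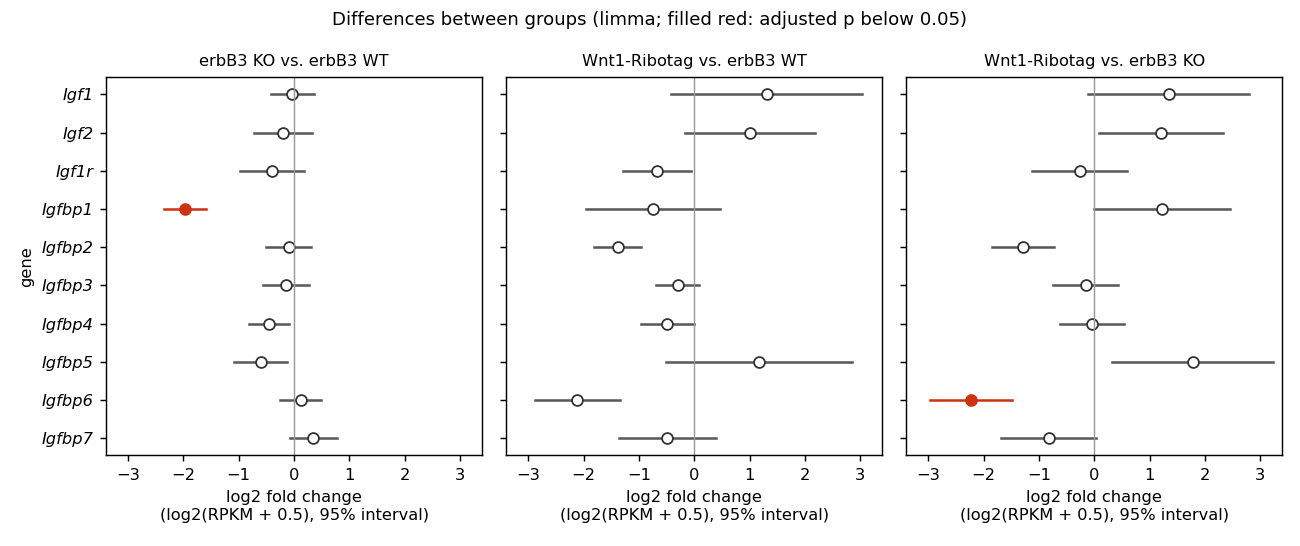
Log2 fold changes of the 10 IGF genes on the log2(RPKM + 0.5) scale with 95% intervals from limma, in the 3 comparisons between groups of 2 libraries. Filled red symbols passed the threshold on the adjusted p: Igfbp1 in mutant against wild-type muscle (-1.97) and Igfbp6 in Wnt1-Ribotag libraries against mutant muscle (-2.24).

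The binding proteins in the Wnt1-Ribotag libraries. Igfbp6 and Igfbp2 were the members with the lowest values relative to whole muscle, and both stood at least 2-fold below every whole-muscle library. Igfbp6 was at 0.779 and 1.48 RPKM in Wnt1-Ribotag 1 and 2, where whole muscle had 5.70 to 7.41. Against mutant muscle it fell by 2.24 on the log2 scale (SE 0.31, 95% interval -2.98 to -1.50, adjusted p = 0.0319 with limma), lower in 4 of 4 pairs, at 16.1% of the mutant mean. Against wild-type muscle its log2 difference was -2.11 (SE 0.30, unadjusted p = 8.15e-04, adjusted p = 0.144 with limma), at 17.6% of the wild-type mean, which did not pass. The call against mutant muscle was lost with no filter on low values (adjusted p = 0.124), without mutant 1 (0.150) and without mutant 2 (0.137), while the difference kept between -2.55 and -1.92 when 1 library was left out.

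Igfbp2 was at 52.1 and 53.6 RPKM in Wnt1-Ribotag 1 and 2, values 1.03-fold apart, against 113 to 149 in whole muscle. Its log2 difference was -1.38 against wild-type muscle (SE 0.16, 95% interval -1.80 to -0.96, unadjusted p = 3.58e-04, adjusted p = 0.134) and -1.28 against mutant muscle (SE 0.23, 95% interval -1.84 to -0.73, adjusted p = 0.0655), both with limma and neither past the test. With all 6 libraries in the limma fit, where the spread is estimated from all 3 groups, Igfbp2 and Igfbp6 both passed against wild-type muscle (adjusted p = 0.0350 and 0.0274) and against mutant muscle (0.0231 and 0.0126). That fit passed 138 genes against wild-type muscle, where the main fit passed 1. Leaving out 1 library moved the difference of Igfbp2 between -1.49 and -1.28 from wild-type muscle and between -1.48 and -1.09 from mutant muscle. The difference of Igfbp6 from wild-type muscle moved between -2.43 and -1.80. Some marker lists of other tissues were lower in the Ribotag libraries as well, and others were not. The connective tissue and tendon markers summed to 2069 and 2175 RPKM there against 2226 to 3108 in whole muscle, with 10 of 10 differences from wild-type muscle negative, a median of -0.52 and 0 past the test. The mesothelium markers summed to 76.8 and 62.8 RPKM against 120 to 138, with 5 of 5 differences negative and a median of -0.55. The mural cell markers summed to 209 and 155 RPKM against 315 to 337, with 4 of 6 differences negative. Acta2 made up most of that sum, and without it the other 5 mural genes summed to 41.5 and 38.4 RPKM against 20.7 to 35.2. The highest of these 5 in the Ribotag libraries was Rgs5, at 20.4 and 15.1 RPKM against 3.79 to 4.90. Pdgfrb was at 13.8 and 12.1 RPKM, against 20.4 and 21.9 in wild-type 5 and 6 and 15.2 and 9.97 in mutant 1 and 2. The macrophage markers summed to 53.7 and 46.4 RPKM against 75.8 to 99.8, with 5 of 5 negative. The endothelium markers summed to 61.0 and 65.4 RPKM against 52.8 to 66.8 in whole muscle, with 5 of 8 differences from wild-type muscle negative and a median of -0.35. Egfl7 was the highest of them in the Ribotag libraries, and without it the other 7 summed to 42.7 and 36.8 RPKM there against 48.5 and 53.1 in wild-type 5 and 6 and 53.6 and 41.6 in mutant 1 and 2. The red cell markers summed to 39.6 and 31.9 RPKM against 8.33 to 46.9, with 2 of 5 differences from wild-type muscle negative. Skeletal muscle markers, at 3891 and 3662 RPKM, remained abundant in the Ribotag libraries, against 3480 to 7014 in whole muscle. The Schwann cell markers were higher than in wild-type muscle for 10 of 10 genes, with a median difference of 2.69 and 0 past the test. Against mutant muscle, 9 of 10 connective tissue and tendon, 5 of 5 mesothelium and 7 of 10 skeletal muscle differences were negative. In each of these lists 1 gene passed the test. Macrophage markers had 5 of 5 and endothelium markers 5 of 8 negative, with 0 past the test. Positive differences were found for 5 of 6 mural (1 past the test), 5 of 5 red cell (2) and 10 of 10 Schwann cell markers (7). The part of these cell types in the values of Igfbp2 and Igfbp6 was not tested.

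Igfbp5, next to Igfbp2 in the genome, was high in Wnt1-Ribotag 1 only. Its RPKM was 1506 in Wnt1-Ribotag 1, rank 11 among all genes of that library, and 374 in Wnt1-Ribotag 2, rank 148, against 293 and 376 in wild-type 5 and 6 and 255 and 186 in mutant 1 and 2. Wnt1-Ribotag 2 thus did not exceed wild-type 6, and the differences, 1.18 from wild-type muscle (SE 0.66, adjusted p = 0.382) and 1.78 from mutant muscle (SE 0.61, adjusted p = 0.197), did not pass the test with limma. Without Wnt1-Ribotag 1 they were 0.17 and 0.78, not past the test, and without Wnt1-Ribotag 2 they were 2.18 (adjusted p = 0.00200) and 2.79 (9.37e-04). As a share of the summed RPKM of Igfbp1 to Igfbp6, Igfbp5 made up 38.7% and 44.9% in wild-type 5 and 6, 37.0% and 35.6% in mutant 1 and 2, and 83.0% and 57.8% in Wnt1-Ribotag 1 and 2. Igfbp2 made up 15.4% to 21.6% of that sum in whole muscle and 2.87% and 8.29% in the Ribotag libraries. Its RPKM was level between the Ribotag libraries (52.1 and 53.6), so the gap between those shares follows the level of Igfbp5 in the sum. The sum of the ligands over the sum of Igfbp1 to Igfbp6 was 1.54 and 1.38 in wild-type 5 and 6, 1.75 and 1.64 in mutant 1 and 2, and 2.14 and 2.24 in Wnt1-Ribotag 1 and 2.

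Igfbp1 was at 2.38 and 0.655 RPKM in Wnt1-Ribotag 1 and 2. Both values lie above both mutant libraries and below both wild-type libraries, with log2 differences of 1.22 (SE 0.51, adjusted p = 0.263) and -0.75 (SE 0.47, adjusted p = 0.431) with limma. The difference from wild-type muscle was -1.40 without Wnt1-Ribotag 1 (adjusted p = 0.00707) and -0.088 without Wnt1-Ribotag 2 (0.681), and the difference from mutant muscle was 1.88 without Wnt1-Ribotag 2 (6.07e-04) and could not be fitted without Wnt1-Ribotag 1, where Igfbp1 was under the filter. Liver markers were also present in the Ribotag libraries, and 10 of 13 passed the test against mutant muscle. Wnt1-Ribotag 1 exceeded Wnt1-Ribotag 2 by 3.63-fold for Igfbp1, where the ratio of the liver markers ran from 0.519 to 4.35 (median 1.45).

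Igfbp3, Igfbp4 and Igfbp7 differed little or unevenly. Igfbp3 was at 74.8 and 75.8 RPKM in Wnt1-Ribotag 1 and 2, below both wild-type libraries and between the mutant ones (log2 differences -0.30, adjusted p = 0.348, and -0.16, adjusted p = 0.765, with limma). Igfbp4 was at 177 and 141 RPKM, below both wild-type libraries and overlapping the mutant ones (-0.49, adjusted p = 0.249, and -0.04, adjusted p = 0.954), and its difference from wild-type muscle was -0.65 without Wnt1-Ribotag 1 (0.0167) and -0.32 without Wnt1-Ribotag 2 (0.0879). Igfbp7 was at 9.75 and 19.3 RPKM, overlapping wild-type and below both mutant libraries (-0.48, adjusted p = 0.479, and -0.83, adjusted p = 0.276). Its differences were -0.0081 and -0.35 without Wnt1-Ribotag 1, not past the test, and -0.96 (adjusted p = 0.00715) and -1.30 (0.00867) without Wnt1-Ribotag 2.

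Against wild-type muscle 0 of the 10 genes passed the test with limma and 4 had an unadjusted p below 0.05, and among all 14418 genes tested 0.00694% passed and 19.5% had an unadjusted p below 0.05. The libraries stood apart on the lower side for 6 of the 10 genes, against 31% of all genes, and on the higher side for 2, against 23.3%. They were at least 2-fold apart in all 4 pairs for 2 genes on the lower side, against 0.825%, and for 0 on the higher side, against 1.51%. Against mutant muscle 1 of the 10 passed the test, against 1.19% of 14325 genes, and 4 had an unadjusted p below 0.05, against 19.3%. There the libraries stood apart on the lower side for 3 genes, against 24.4%, and on the higher side for 4, against 29.7%, and were at least 2-fold apart in all pairs for 2 genes on the lower side, against 0.607%, and for 0 on the higher side, against 3.34%.

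The Wnt1-Ribotag libraries differed from each other more than the replicates of whole muscle did. Of the 10 IGF genes, 4 were at least 2-fold apart between Wnt1-Ribotag 1 and 2 on the log2(RPKM + 0.5) scale, where 13.8% of all genes were, against 0 between the wild-type libraries, where 1.03% of all genes were, and 0 between the mutant libraries, where 1.42% were. The 4 genes were Igf1, Igfbp5, Igf2 and Igfbp1, and Wnt1-Ribotag 1 was the higher library for each, by 2.06, 2.01, 1.37 and 1.32 on the log2 scale. A gap larger than that of Igf1 was found for 1.87% of 14406 genes, larger than that of Igfbp5 for 2.06%, larger than that of Igf2 for 6.89% and larger than that of Igfbp1 for 7.52%. Igfbp7 (-0.95) and Igfbp6 (-0.63) were lower in Wnt1-Ribotag 1, and Igfbp2 (-0.04) and Igfbp3 (-0.02) were level. The summed Schwann cell markers went the other way, with 177 RPKM in Wnt1-Ribotag 1 and 384 in Wnt1-Ribotag 2, and the part of cell composition in these gaps was not tested.

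**Figure D4:**
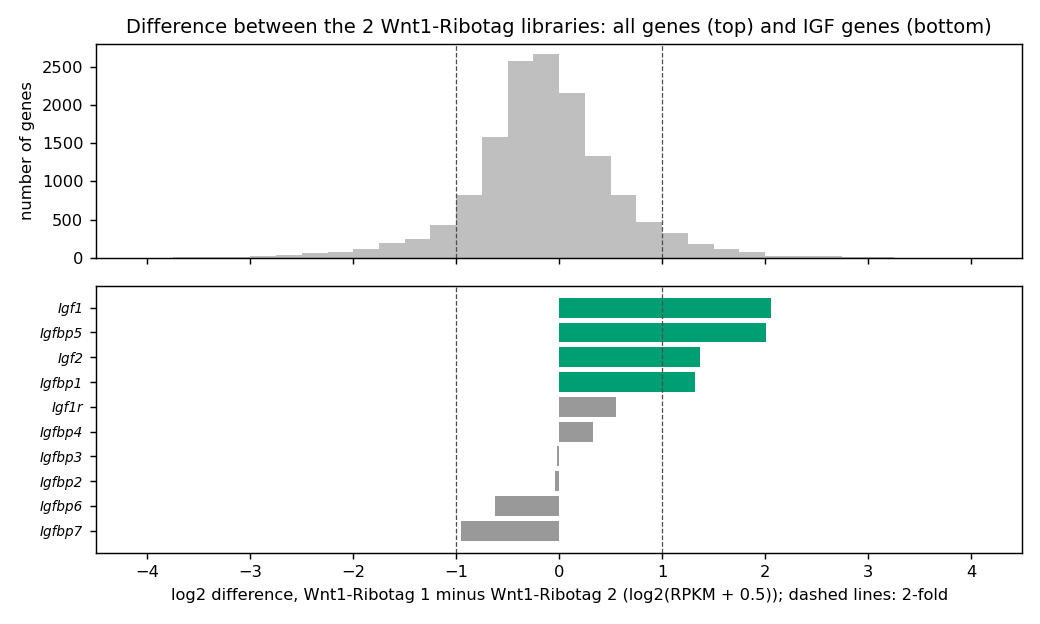
Difference between the Wnt1-Ribotag libraries on the log2(RPKM + 0.5) scale, Wnt1-Ribotag 1 minus Wnt1-Ribotag 2, as a histogram over all genes (top) and as a bar for each IGF gene (bottom, green where at least 2-fold). Igf1, Igfbp5, Igf2 and Igfbp1 lie beyond the dashed line at 2-fold and 13.8% of all genes do so in either direction.

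Igf1 and Igfbp5 were near each other in pattern over the 6 libraries, and Wnt1-Ribotag 1 carried most of that pattern. The ratio of Igfbp5 to Igf1 in RPKM was 5.41 and 5.12 in wild-type 5 and 6, 4.22 and 2.95 in mutant 1 and 2, and 4.69 and 4.87 in Wnt1-Ribotag 1 and 2. From the lowest to the highest library Igf1 spanned 5.93-fold and Igfbp5 8.09-fold, and without Wnt1-Ribotag 1 the spans over the other 5 libraries were 1.42-fold and 2.02-fold. Likeness of pattern was measured as the root mean square difference of log2(RPKM + 0.5) over the 6 libraries, each gene centred on its own mean, among 13118 genes, and is a description with no test. By this measure Igfbp5 was 0.29 from Igf1, which placed it 61st of all genes, and Igf2 was 0.32 from Igf1. Igfbp6 and Igfbp2 were 0.45 apart, which placed Igfbp2 44th from Igfbp6 but Igfbp6 1520th from Igfbp2.

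The genes nearest in pattern to Igf1 were Cbx5 (0.089), Klhl10 (0.093) and Scarna13 (0.13), and those nearest to Igf2 were Galnt10 (0.062), Cd93 (0.064) and C130074G19Rik (0.071). Nearest to Igfbp5 were Tbc1d16 (0.11), Sema5a (0.11) and Ttyh3 (0.12), to Igfbp2 Crlf2 (0.086), ENSMUSG00000085661 (0.11) and Nid2 (0.11), and to Igfbp6 Lor (0.13), 1700120B22Rik (0.20) and Gm14411 (0.20). Igfbp1 had no gene as close. Its nearest were Pklr (0.39), Gata1 (0.39) and Cfi (0.42), each of which was higher in wild-type 5 than in wild-type 6. Pklr was at 3.89 and 1.97 RPKM in wild-type 5 and 6, at 0.295 and 0.132 in mutant 1 and 2, and at 3.49 and 1.14 in Wnt1-Ribotag 1 and 2.

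The other genes of the pathway. A list of 51 further genes was described beside the 10: relatives of the ligands and receptor, partners, proteases and inhibitors of the binding proteins, RNA-binding proteins of Igf2 mRNA, the adaptors below the receptor, PI3K, AKT, FOXO and mTOR, the growth hormone axis and the ubiquitin ligases that FOXO controls. Of these, 45 were tested between mutant and wild-type muscle, and 46 in each Ribotag comparison. None passed the test with limma in any comparison (0 of 45, 0 of 46 and 0 of 46), and 5, 8 and 6 had an unadjusted p below 0.05, beside 12%, 19.5% and 19.3% of all genes tested. The lowest adjusted p was 0.319, 0.170 and 0.137. Between mutant and wild-type muscle 39 of the 45 differences were negative and 6 positive, with a median of -0.18 beside -0.10 for all genes tested. Against wild-type muscle the Ribotag differences were split into 24 negative and 22 positive (median -0.006), and against mutant muscle into 17 and 29 (median 0.21).

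Irs2, an insulin receptor substrate that links the receptor to PI3K, was the only one of the pathway genes tested that stood at least 2-fold apart in all 4 pairs of a comparison. Its RPKM was 3.79 and 3.38 in wild-type 5 and 6, 2.74 and 2.13 in mutant 1 and 2, and 0.774 and 1.32 in Wnt1-Ribotag 1 and 2, so that the 3 groups did not overlap. Mutant libraries stood below wild-type ones for 14 of 45 pathway genes, against 37.4% of all genes. Ribotag libraries stood below wild-type ones for 13 of 46, against 31%, and below mutant ones for 8 of 46, against 24.4%. The log2 difference of Irs2 between Ribotag and wild-type libraries was -1.42 (SE 0.28, adjusted p = 0.170 with limma). In that comparison 0.825% of all genes were at least 2-fold lower in all 4 pairs. Between mutant and wild-type muscle the difference of Irs2 was -0.48 (SE 0.17, adjusted p = 0.378 with limma). Its relative Irs1, named after its values were seen, was at 7.88 and 8.80 RPKM in wild-type 5 and 6, 8.77 and 6.95 in mutant 1 and 2, and 13.6 and 8.95 in Wnt1-Ribotag 1 and 2.

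A few other genes of the list were looked at after their values were seen. Igfals, the acid-labile subunit that the liver adds to the complex of IGF and IGFBP3 in blood, was at 0.0579 and 0.0599 RPKM in wild-type 5 and 6 and at 0.0238 and 0.0226 in mutant 1 and 2, too low to be tested. Ins1 and Ins2, the insulin genes, were at or below 0.0718 RPKM in each library. Igfbpl1, a binding protein relative, was at 5.98 RPKM in Wnt1-Ribotag 2 alone, against 0.422 in Wnt1-Ribotag 1 and 0.218 to 0.464 in whole muscle. Pappa, the protease of IGFBP4, was at 3.17 RPKM in Wnt1-Ribotag 1 and 0.502 in Wnt1-Ribotag 2, around 1.15 to 1.84 in whole muscle. Eif4ebp1, a translation repressor under mTOR, was at 63.6 and 55.5 RPKM in wild-type 5 and 6, at 73.7 and 80.4 in mutant 1 and 2, and at 42.2 and 45.8 in Wnt1-Ribotag 1 and 2, groups that did not overlap (log2 difference of mutant from wild-type muscle 0.37, SE 0.14, adjusted p = 0.390 with limma). Both mutant libraries stood above both wild-type ones for 4 of the 45 pathway genes tested, against 12.7% of all genes.

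**Figure D5:**
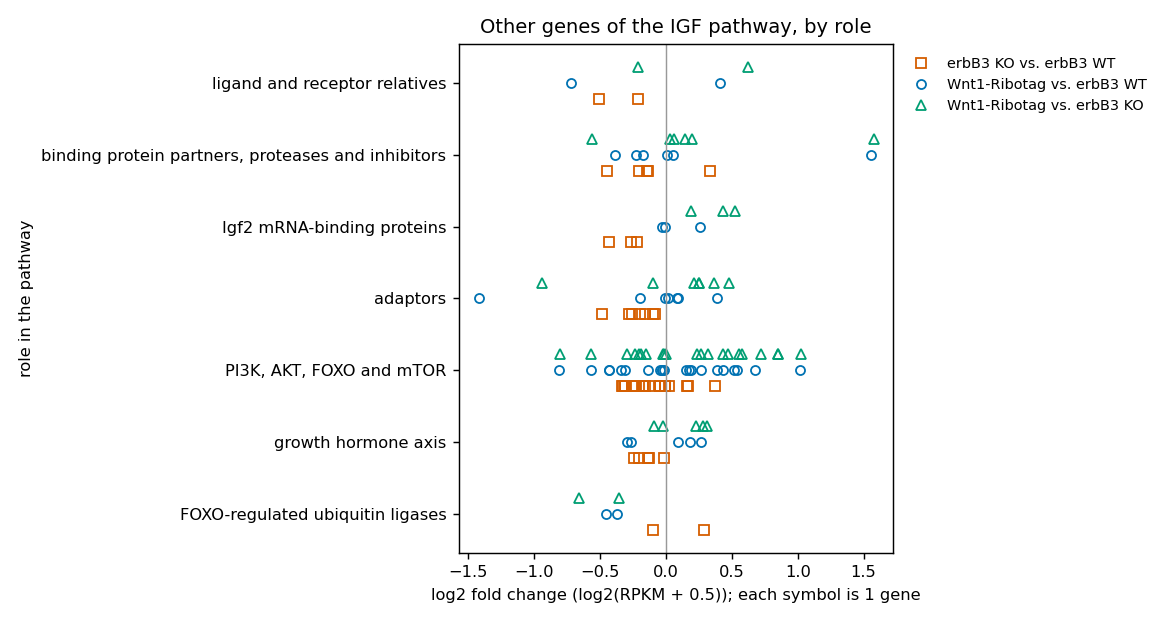
Log2 fold changes on the log2(RPKM + 0.5) scale of the other IGF pathway genes that were tested, 1 symbol per gene, in rows by role and with a symbol for each comparison (squares mutant against wild-type, circles Wnt1-Ribotag against wild-type, triangles Wnt1-Ribotag against mutant). Most squares lie left of 0 (39 of 45), in a comparison where the median of all genes tested was -0.10. The circle farthest left is Irs2 at -1.42, while the circle and triangle farthest right are Igfbpl1 (1.55 and 1.58).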

How the data were processed

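RNA of the 6 diaphragm libraries was deposited by the authors as RPKM per Ensembl gene, with a second column that is 1 where a gene sits at its floor and 0 elsewhere. The submitters' processing notes name STAR and mm9, and the program behind the RPKM is not given in the sources used here. Of 23076 entries in each file, 3 hold no value. Identifiers were matched to symbols (21583 matched, 1490 did not) and to GENCODE M21. Groups and replicate numbers came from the labels. RPKM were transformed to log2(RPKM + 0.5), and genes with a mean of at least 0.5 RPKM over the 4 libraries compared were fitted with limma 3.58.1 under R 4.3.3 (lmFit, then eBayes with trend = TRUE). p-values were adjusted by Benjamini-Hochberg over all genes tested, the threshold was 0.05 and no block was used. Read counts were not used, and no counting error is given. p-values rest on 2 libraries a group, with the variance of each gene moderated by eBayes towards a trend over all genes tested. The procedure was tested on simulated data. Alternatives tried were median-ratio and quantile scaling, a pseudocount of 0.1 or 1, the filter dropped or raised to 1 RPKM, no trend in eBayes, a fit to all 6 libraries, an adjusted p of 0.1, a block by replicate number, and leaving out each library in turn. Promoters were found for 10 of 10 genes in the RefSeq table. The named genes were the 10 IGF genes, pathway genes past the threshold or at least 2-fold apart in all pairs, and the 3 genes nearest in pattern to each IGF gene that averaged 1 RPKM or more and whose group means spanned at least 2-fold. Igf2r, Irs1, Igfals, Ins1, Ins2, Igfbpl1, Pappa and Eif4ebp1 fall outside this rule and were named after their values were seen, and marker genes stand only beside a result. The genes, lists and rules were chosen with earlier results of these data known. Tables and figures were made with Python 3.11.15, pandas 2.3.3, numpy 2.4.6 and matplotlib 3.10.9.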

Additional observations from a re-analysis of the deposited data

How the results depend on the processing

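With 2 libraries a group, a fit that leaves out a library has a lone sample that is assumed to vary like the others. The number of genes past the threshold between mutant and wild-type muscle was 24, and 0 with no filter, 45 with median-ratio scaling, 0 with all 6 libraries and 62 at an adjusted p of 0.1 (10 to 106 without 1 library, the extremes being mutant 2 and wild-type 5). Median-ratio scaling gave 21 higher and 24 lower genes there, against 7 and 17. Between Wnt1-Ribotag and wild-type it was 1, and 0 with no filter, 2 with median-ratio scaling, 138 with all 6 libraries and 5 at 0.1 (26 to 5965, with 4482 without Wnt1-Ribotag 1 and 5965 without Wnt1-Ribotag 2). Between Wnt1-Ribotag and mutant it was 171, and 112 with no filter, 83 with quantile scaling, 692 with all 6 libraries and 414 at 0.1 (112 to 3672, with 112 without mutant 2, 2538 without Wnt1-Ribotag 1 and 3672 without Wnt1-Ribotag 2).

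Among the 10 IGF genes, the count of 1 between mutant and wild-type became 0 with no filter and with all 6 libraries, and was 1 to 1 without 1 library. The count of 0 between Wnt1-Ribotag and wild-type became 2 with all 6 libraries (0 to 6 without 1 library, with 5 without Wnt1-Ribotag 1 and 6 without Wnt1-Ribotag 2). The count of 1 between Wnt1-Ribotag and mutant became 0 with no filter, 2 with all 6 libraries and 2 at 0.1 (0 to 7, with 0 without mutant 1 or mutant 2, 2 without Wnt1-Ribotag 1 and 7 without Wnt1-Ribotag 2). Among the other pathway genes, the count of 0 against mutant became 1 with all 6 libraries, and the ranges without 1 library were 0 to 18 against wild-type (10 without Wnt1-Ribotag 1, 18 without Wnt1-Ribotag 2) and 0 to 12 against mutant (5 and 12). The causes were not tested.

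The labels give mutant and Wnt1-Ribotag libraries the same replicate numbers, but these numbers name separate embryos and pools, and with 2 pairs the correlation of the deviations of same-numbered libraries was 0.168. With a replicate block 842 genes and 4 of the 10 IGF genes passed against mutant muscle (Igf2, adjusted p = 0.00435, Igfbp2, 0.00813, Igfbp5, 0.00697, and Igfbp6, 0.00577, limma).

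The sign of small differences turned under some settings. Between mutant and wild-type, Igf1 was at 0.082 and Igfbp2 at 0.015 with median-ratio scaling, and without 1 library Igf1 ran from -0.25 to 0.19, Igf2 from -0.46 to 0.066, Igf1r from -0.83 to 0.019, Igfbp2 from -0.29 to 0.10, Igfbp3 from -0.39 to 0.10 and Igfbp6 from -0.027 to 0.27. Between Wnt1-Ribotag and mutant, Igfbp4 was at 0.20 with quantile scaling, and without 1 library Igf1r ran from -0.69 to 0.15, Igfbp3 from -0.40 to 0.089 and Igfbp4 from -0.20 to 0.13. No IGF gene changed sign between Wnt1-Ribotag and wild-type. The fall of Igfbp1 kept its sign in each setting, from -2.81 with a pseudocount of 0.1 to -1.47 with a pseudocount of 1.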
